A study of Homo sapiens with 12 samples.

Results

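The genes described here are 9 human genes of glutathione metabolism and redox defence: MGST1, MGST2, MGST3, GCLC, HMOX1, NQO1, SOD2, TXNIP and NFE2L2. They are 9 of the 19970 protein-coding genes that the RefSeq table of GRCh38.p14 (the assembly of hg38) places on chromosomes 1 to 22 and X. A peak of PPARγ chromatin immunoprecipitation sequencing (ChIP-seq) was assigned to a gene when its summit lay within 50 kb of the gene's span. These windows held 44 of the 25164 peaks of the pooled wild-type list and 9 of the 2846 peaks of the pooled mutant list. The genes were chosen with the peaks near them already known, so the number of peaks near each is a description and carries no test.

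The study asked how a mutation of the nuclear receptor PPARγ changes where it binds DNA. The cells were MCF10A-NeuT, the human mammary epithelial line MCF10A transformed with the NeuT oncogene, kept in DMEM with fetal bovine serum and infected with retrovirus made from pMSCV-IRES-GFP. The labels give 12 libraries in 6 groups of 2, input and PPARγ ChIP for each of the genotypes Vector Control, PPARg-WT and PPARg-KQ. The 4 ChIP libraries of PPARg-WT (wild type) and PPARg-KQ (K154/155Q, a pair of lysines replaced by glutamine, a mutant described in the design text as deficient in acetylation, while glutamine commonly stands in for acetyl-lysine) each have a peak list, and each of these groups has a pooled list; the other libraries were not analysed here. Both receptors were thus made from an introduced virus in cells for which no label names a loss of their own PPARG gene. The labels name a PPARγ antibody in the sample fields and a Flag antibody in the design text, and with the former the cells' own receptor would also be pulled down. They do not say whether libraries 1 and 2 are separate cultures, and the differences between them may be only technical. Peak lists hold no expression values, so the cell type was not checked against markers.

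Glutathione is the main small thiol of the cell. Glutamate-cysteine ligase makes its precursor, transferases attach it to lipids and foreign compounds, and the transcription factor NRF2, encoded by NFE2L2, switches on many of these genes through antioxidant response elements. PPARγ binds DNA as a pair with RXR at direct repeats of the hexamer AGGTCA with 1 base between them, called DR1, and its best known targets store and use fatty acids.

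The sequences that the data bear on are promoters under a called peak. Of the 44 wild-type summits, 3 lay in the 250 bases before a start site in RefSeq's promoter table (GRCh38.p14), and the 3 sequences that hold them are printed 5′ to 3′ along the gene, with a DR1 match in capitals. They show a peak at 1 of the 4 listed start sites of SOD2, with a repeat, and a peak at 1 of the 3 of MGST1, without one. The last is a peak counted for SOD2 that lies at the start site of another gene (MRPL18).
SOD2 promoter, chr6:159726951-159727200, minus strand: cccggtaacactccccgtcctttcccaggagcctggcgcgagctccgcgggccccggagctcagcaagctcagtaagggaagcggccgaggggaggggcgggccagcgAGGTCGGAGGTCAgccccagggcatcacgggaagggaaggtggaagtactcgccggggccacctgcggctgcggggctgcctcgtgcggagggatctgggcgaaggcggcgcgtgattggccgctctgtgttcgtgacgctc
MGST1 promoter, chr12:16347395-16347644, plus strand: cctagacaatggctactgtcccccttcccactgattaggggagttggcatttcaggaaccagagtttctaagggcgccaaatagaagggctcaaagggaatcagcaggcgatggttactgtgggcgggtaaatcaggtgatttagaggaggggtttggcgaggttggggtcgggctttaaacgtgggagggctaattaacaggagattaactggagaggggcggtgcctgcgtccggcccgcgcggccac
MRPL18 promoter, chr6:159789617-159789866, plus strand: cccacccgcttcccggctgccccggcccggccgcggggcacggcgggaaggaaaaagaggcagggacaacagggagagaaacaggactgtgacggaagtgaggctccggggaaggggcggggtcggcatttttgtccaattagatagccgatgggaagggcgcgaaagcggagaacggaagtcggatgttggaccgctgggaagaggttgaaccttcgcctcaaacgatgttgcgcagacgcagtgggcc
The SOD2 stretch holds 1 match to AGGTCANAGGTCA, searched on both strands with up to 2 mismatches. The match differs from the repeat by A6G, counted from its first base, lies at chr6:159727080-159727092, and is 76 bp from the summit. The same bases belong to the promoter of WTAP, a subunit of the RNA methyltransferase complex, which is transcribed the other way. In the MGST1 and MRPL18 stretches the closest match had 4 mismatches. Of all 34961 promoter windows of 300 bases (250 before to 50 after a start site), 2.96% held a match with up to 2 mismatches and 0.338% with up to 1. Among windows that held a pooled wild-type summit, as the SOD2 window does, the shares were 6.76% (90 of 1331) and 0.902% (12 of 1331). For reproducible wild-type summits the share with up to 2 was 13.4% (41 of 305), for pooled KQ summits 8.61% (13 of 151) and for reproducible KQ summits 17.6% (3 of 17). With up to 1 mismatch, as in the SOD2 match, these were 0.984% (3 of 305), 0 of 151 and 0 of 17. Of the 14 windows of the 7 members with an entry, 1 held a DR1 match, the printed SOD2 one. In the windows of the other SOD2 start sites the closest match had 4 or 5 mismatches. The antioxidant element core TGACNNNGC was held on either strand by 1 of the 14, against 13.4% of all windows. It was the window of another MGST1 start site, chr12:16346865-16347164, not the printed stretch. The core and DR1 can overlap by letters. A match of letters is a description of the sequence, not a binding site.

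The fold of a peak is the authors' enrichment over the caller's local background. Every fold and p-value in the 6 lists fitted a whole number of ChIP tags over an expected number, with fold equal to tags plus 1 over expected plus 1, so both could be recovered within a relative tolerance of 0.0001. The wild-type lists held 18143 and 17859 peaks with a median of 15 and 8 tags, and the KQ lists held 1263 and 1035 peaks with a median of 17 and 16 tags. For libraries 1 and 2 the median of expected tags was 1.41 and 0.448 with wild type, and 2.01 and 1.78 with KQ. So wild-type library 2 had the lowest median of tags and of expected tags, and its small counts give the widest intervals relative to the count. Neither number is scaled to a read depth common to the libraries, so they do not compare the background of the libraries. A pooled peak is called reproducible here when a peak of each of its group's libraries overlapped it by at least 1 bp, which held for 31.9% of pooled wild-type and 12.4% of pooled KQ peaks.

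Wild-type PPARγ had a reproducible peak within 50 kb of 8 of the 9 genes, all but TXNIP, and the KQ mutant within 50 kb of 2, GCLC and SOD2. Among all protein-coding genes the shares were 37.7% for wild type and 2.68% for KQ, against 88.9% and 22.2% of the 9, but the genes were chosen on these lists and nothing is read from the difference. With every pooled peak counted, wild type had a peak near all 9 (67.1% of all genes) and KQ near 6 (16.4% of all genes), the exceptions being MGST1, MGST2 and HMOX1. Reproducible wild-type peaks numbered 15, of which 5 were near MGST3, 3 near MGST1, 2 near GCLC and 1 near each of MGST2, HMOX1, NQO1, SOD2 and NFE2L2. The median protein-coding gene had 0. MGST3 was among the 0.856% of genes with 5 or more, and MGST1 among the 5.15% with 3 or more. In density, the 1.47 Mb of member windows held 10.2 reproducible wild-type peaks per Mb, against 3.31 in the windows of all protein-coding genes, and 1.36 reproducible KQ peaks per Mb against 0.141.

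**Figure D1:**
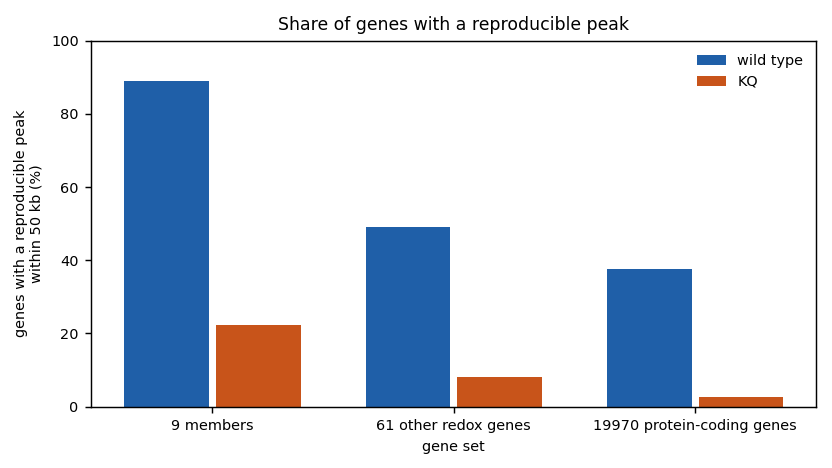
Share of genes with a peak within 50 kb (percent, from 0), for the 9 genes, the 61 other redox genes and all 19970 protein-coding genes, with wild-type and KQ bars side by side. Wild-type reproducible peaks reach 88.9% of the 9 genes, 49.2% of the 61 and 37.7% of all, and KQ ones 22.2%, 8.2% and 2.68%.

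Most of the 15 sites were away from the members' own start sites. Only 4 summits lay inside a member's span, 3 in MGST1 and 1 in MGST3, and of the 11 outside, 8 were inside or nearer to another protein-coding gene. Of the 13 peaks whose gene has a start site in the promoter table, 0 summits lay within 1 kb of it and 2 within 5 kb, both in MGST1. With a window of 5 kb in place of 50 kb, 3 genes kept a reproducible wild-type peak (MGST1, MGST3 and HMOX1), and with each peak given only to its nearest gene 4 did (those and GCLC). RefSeq spans were used without exons, so exon, intron and UTR were not told apart.

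**Figure D2:**
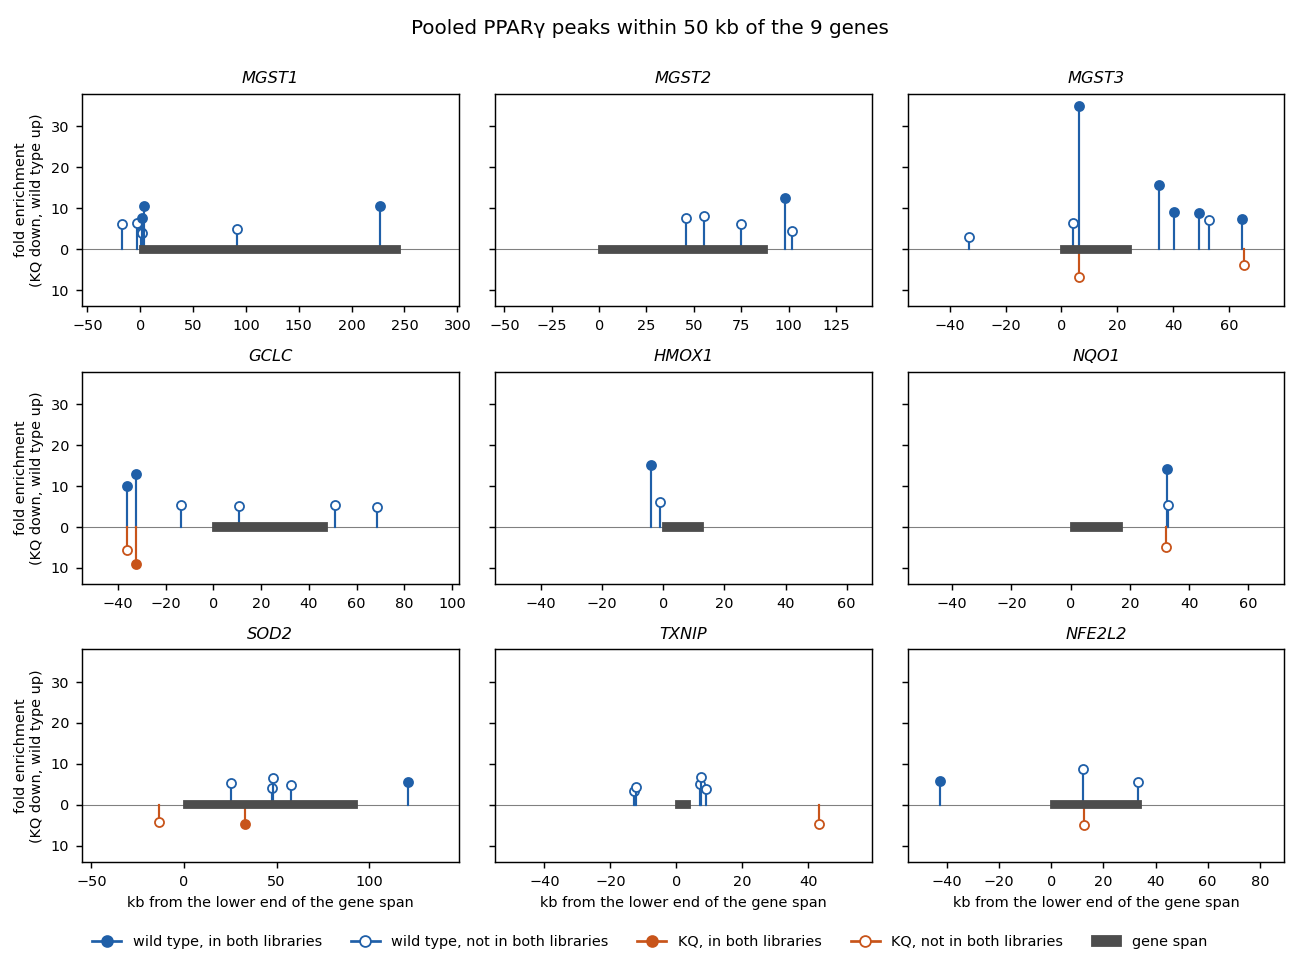
Position of each pooled peak summit along the 9 genes, in kb from the gene's lower end on the chromosome, with the gene's span as a bar and the 50 kb windows around it; stems give the authors' fold, upward for wild type and downward for KQ, and filled points are peaks found in both libraries. The 5 reproducible wild-type peaks of MGST3 include 4 beyond its upper end, and TXNIP has open symbols only.

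The MGST genes encode microsomal glutathione transferases of the MAPEG family, membrane enzymes that conjugate glutathione or reduce lipid peroxides. MGST3 (gene 4259, chr1:165631234-165656136) held the highest-fold site of the 15, inside the gene at chr1:165637390-165637937 and 6.4 kb downstream of its start site. Its fold was 26.5 in wild-type library 1 (65 tags over 1.49 expected) and 20.9 in library 2 (34 over 0.672), and 34.9 in the pooled list (89 over 1.58, exact Poisson 95% interval of the tags 71.5 to 110). By pooled fold it ranked 2 of the 8033 reproducible wild-type peaks. In KQ library 1 it was called at a fold of 6.33 (25 tags over 3.1), in KQ library 2 it was not called, and in the pooled KQ list it had a fold of 6.68 (41 tags over 5.29, interval 29.4 to 55.6), with the summit 28 bp away. Wild type was the higher in both libraries and in pooled tags, at a site described because of its wild-type peaks and with tags not scaled to read depth, so the order is a description.

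The other 4 reproducible wild-type sites near MGST3 lay in a neighbour, ALDH9A1, an aldehyde dehydrogenase of carnitine synthesis. They were 10.2, 15.6, 24.3 and 40.0 kb beyond the upper end of MGST3. The nearest, chr1:165666136-165666465, had a fold of 13.8 in library 1, 10.8 in library 2 and 15.7 pooled, above 92.8% of reproducible wild-type peaks. The other 3 had pooled folds of 9.03, 8.78 and 7.42. None of the 4 was overlapped by a peak in any KQ list. A pooled KQ peak of fold 3.85 (chr1:165696691-165696860, 40.6 kb out), found in neither KQ library, was not overlapped by a wild-type peak.

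MGST1 (gene 4257, chr12:16347115-16593331) had 3 reproducible wild-type sites, all inside its span. The site 3.08 kb downstream of the nearest start site, chr12:16350749-16350992, had a fold of 6.68 in library 1 (33 tags over 4.09), 11.4 in library 2 (18 over 0.672) and 10.5 pooled, and no peak in any KQ list. At chr12:16349169-16349470, 1.5 kb downstream, the folds were 5.55, 8.07 and 7.68, and KQ library 1 called a peak of fold 4.14 (16 tags over 3.1) that was absent from KQ library 2 and the pooled KQ list. The site at chr12:16573656-16573870, 226 kb downstream and also inside LMO3, a LIM-domain cofactor, had folds of 6.9, 5.21 and 10.6. At both sites near the start, library 2 gave the higher fold on fewer tags. The promoter peak whose sequence is printed above had a pooled fold of 4.25 (15 tags over 2.77) with its summit at -175 bp from the start site, and neither library called it. Library 2 had a separate peak across the end of the printed stretch, chr12:16347565-16347692, with a fold of 4.15 (6 tags over 0.688). That peak overlapped no pooled wild-type peak.

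MGST2 (gene 4258, chr4:139665819-139754618) had 1 reproducible wild-type site of 5 pooled ones, at chr4:139763822-139764119. It lay 9.34 kb above the gene's upper end, inside MAML3, a coactivator of Notch signalling. The fold was 15.6 in library 1 (27 tags over 0.796), 6.33 in library 2 (11 over 0.896) and 12.4 pooled, above 80.7% of reproducible wild-type peaks. No KQ list held a peak in the MGST2 window.

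GCLC (gene 2729, chr6:53497341-53545101) encodes the catalytic subunit of glutamate-cysteine ligase, the rate-limiting enzyme of glutathione synthesis. Its 2 reproducible wild-type sites lay 36.2 and 32.3 kb below the gene's lower end, which is its 3′ end, inside the antisense transcript GCLC-AS1. The site at chr6:53464798-53465356 was the only one near the 9 genes that was reproducible in both genotypes. Its fold was 11.4 in wild-type library 1 (37 tags over 2.34), 12.4 in library 2 (17 over 0.448), 6.33 in KQ library 1 (25 over 3.1) and 7.18 in KQ library 2 (18 over 1.65). The wild-type libraries were both above the KQ libraries in fold, but the pooled tags, 48 for wild type (interval 35.4 to 63.6) and 41 for KQ (29.4 to 55.6), overlapped in their intervals. Expected tags there were 2.77 in the pooled wild-type and 3.6 in the pooled KQ list, giving folds of 13.0 and 9.13, and the summits were 5 bp apart. By fold it ranked 60 of the 354 reproducible KQ peaks and 1290 of the 8033 wild-type ones.

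The neighbouring GCLC site, chr6:53460985-53461260, had a fold of 9.89 in wild-type library 1, 6.86 in library 2 and 10.1 pooled (45 tags). The pooled KQ list called it at 5.65 (25 tags over 3.6), with the summit 39 bp away, although neither KQ library did. Nearest to the gene's upper end, where GCLC is transcribed from, was a pooled wild-type peak of fold 5.29 seen in library 1 only, 3.15 kb outside the span.

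HMOX1 (gene 3162, chr22:35381096-35394207) encodes haem oxygenase 1, which breaks down haem, and NQO1 (gene 1728, chr16:69709401-69726560) encodes a quinone reductase; both are textbook NRF2 targets. The HMOX1 site, chr22:35376947-35377278, lay 3.95 kb below the span and nearer to HMOX1 than to any other protein-coding gene. Its fold was 10.2 in wild-type library 1 (27 tags over 1.75), 13.8 in library 2 (22 over 0.672) and 15.1 pooled (50 tags), above 91.7% of reproducible wild-type peaks. KQ library 1 called a peak there with a fold of 5.45 (18 tags over 2.48), and KQ library 2 and the pooled KQ list did not. This site too was included through wild type, which was the higher. A second pooled wild-type peak, chr22:35380010-35380172, lay 1.03 kb below the HMOX1 span. Its fold was 6.11 pooled (22 tags over 2.77) and 7.18 in library 2, and library 1 and the KQ lists did not call it.

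At NQO1 the reproducible site, chr16:69741641-69741927, lay 15.2 kb above the gene's upper end, inside the transcript NQO1-DT and 0.107 kb from NOB1, an endonuclease of ribosomal RNA processing. The fold was 13.1 in wild-type library 1 (35 tags over 1.75), 6.05 in library 2 (8 over 0.487) and 14.2 pooled (42 tags over 2.02). KQ library 2 called it at 6.55 (18 tags over 1.9), KQ library 1 did not, and the pooled KQ fold was 4.83 (37 tags over 6.86). Here the groups overlapped, since KQ library 2 lay above wild-type library 2 in fold. The pooled tags, 30.3 to 56.8 for wild type and 26.1 to 51.0 for KQ as intervals, overlapped as well, while expected tags were higher in KQ.

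SOD2 (gene 6648, chr6:159669069-159762281) encodes the manganese superoxide dismutase of mitochondria. Its reproducible wild-type site, chr6:159789660-159789856, was among the weaker ones, with folds of 4.09 in library 1 (27 tags over 5.84), 6.76 in library 2 (11 over 0.774) and 5.66 pooled, above 7.74% of reproducible wild-type peaks. It lay 27.5 kb above SOD2, in the shared promoter of MRPL18, a mitochondrial ribosomal protein, and TCP1, a chaperonin subunit, and no KQ list held it. The peak at the SOD2 start site of the printed promoter was chr6:159726913-159727150. It had a fold of 4.38 in library 1 (11 tags over 1.74) and 4.75 pooled (15 over 2.37), and no peak in library 2 or KQ. So the promoter with the DR1 match printed above was not reproducible in wild type. Another pooled wild-type peak, chr6:159694289-159694485, had its summit at -1148 bp from a different listed SOD2 start site, 159693241. Its fold was 5.42 pooled (13 tags over 1.58) and 5.0 in library 2 (6 over 0.401). Library 1 and the KQ lists did not call it.

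SOD2 also held the other reproducible KQ peak, chr6:159701615-159701922, inside the gene's span, with its summit at -8507 bp from the nearest listed SOD2 start site. Its fold was 6.03 in KQ library 1 (20 tags over 2.48), 3.92 in KQ library 2 (18 over 3.84) and 4.74 pooled (33 over 6.18, interval 22.7 to 46.3), rank 320 of 354. Wild-type library 1 called a peak of fold 5.53 there (11 tags over 1.17), between the KQ libraries, while wild-type library 2 and the pooled wild-type list did not. So 3 of the 4 libraries called this site.

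TXNIP (gene 10628, chr1:145992435-145996579) encodes an arrestin-like protein that binds and inhibits thioredoxin. It had 5 pooled wild-type peaks, 3 of them in library 1 only, 1 in library 2 only and 1 in neither, and hence 0 reproducible ones. The highest fold was 6.72 pooled (19 tags over 1.98) at chr1:145999856-146000047, 3.37 kb upstream of the start site, with 8.63 in library 1 and no peak in library 2. A KQ peak of fold 4.81 lay 39.1 kb out, was in neither KQ library, and was nearer to HJV, an iron-regulating coreceptor.

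NFE2L2 (gene 4780, chr2:177230303-177264727) had its reproducible wild-type peak at the far edge of the window, at chr2:177187663-177187888. It lay 42.5 kb below the gene and 25.0 kb from HNRNPA3, an RNA-binding protein, with folds of 5.99, 5.19 and 5.86, above 9.56% of reproducible wild-type peaks. Inside the gene, chr2:177242551-177242758 had a higher fold of 8.74 (25 tags over 1.98) and 7.27 in library 1, but library 2 did not call it. The pooled KQ list held a peak there of fold 4.96 (21 tags over 3.43), which neither KQ library called, with the summit 63 bp away. The pooled tag intervals, 16.2 to 36.9 and 13.0 to 32.1, overlapped. A further pooled wild-type peak, chr2:177263417-177263681, had its summit 0.615 kb downstream of a listed start site. Its fold was 5.49 pooled (24 tags over 3.56) and 4.85 in library 1, and library 2 and the KQ lists did not call it.

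**Figure D3:**
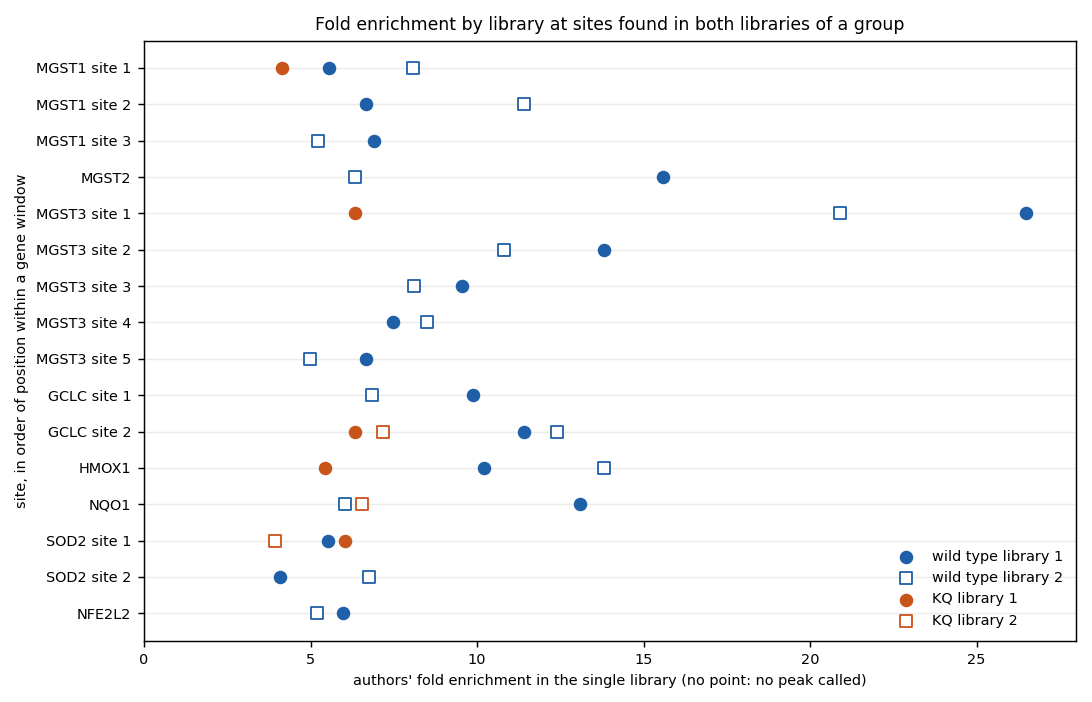
Authors' fold enrichment (linear axis from 0) per single library, wild type in blue and KQ, where a peak was called, in orange, for each reproducible site near the 9 genes. The MGST3 site stands highest in both wild-type libraries, at 26.5 and 20.9, and KQ points are present at 6 of the sites drawn.

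Over the 15 reproducible wild-type sites the fold ran from 4.09 through a median of 9.55 to 26.5 in library 1, and from 4.99 through 8.07 to 20.9 in library 2. Library 1 was the higher at 9 of the 15. Pooled folds ran from 5.66 to 34.9 with a median of 10.5, beside 9.03 over all reproducible wild-type peaks. The 29 pooled wild-type peaks that were not reproducible had folds from 3.03 to 8.74 with a median of 5.29; 12 were in library 1 only, 10 in library 2 only and 7 in neither. The peaks nearest the 50 kb limit were the NFE2L2 site at 42.5 kb, just inside, and a wild-type peak of fold 6.36 at 50.6 kb from HMOX1, just outside and not reproducible.

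In the windows each wild-type library had 30 peaks, KQ library 1 had 5 and KQ library 2 had 3. The means were 30 ± 0 and 4 ± 1.41 (SD, n = 2 each), a ratio of 7.5, and the counts of the groups did not overlap. These counts are from the lists the genes were chosen on, so they are a description with no test. The wild-type lists were 15.7 times as long over the genome. As a share of its own list, the member windows held 0.165% and 0.168% of wild-type peaks (exact 95% intervals 0.112 to 0.236 and 0.113 to 0.24) and 0.396% and 0.29% of KQ peaks (0.129 to 0.921 and 0.0598 to 0.845). The intervals of the groups overlapped, and they cover counting error only. When each wild-type list was shortened by q to the mean length of the KQ lists, the ratio was 1.25.

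Of the 44 pooled wild-type peaks, 5 were overlapped by a pooled KQ peak (11.4%, exact 95% interval 3.79 to 24.6), beside 9.1% of all pooled wild-type peaks. The share was 4.55% with KQ library 2 alone in place of the pooled KQ list and 20.0% with wild-type library 1 alone in place of the pooled wild-type list, so it turns on single libraries. Of the 15 reproducible ones it was 4 (26.7%, 7.79 to 55.1), beside 20.1% of all. The 5 were the MGST3 intragenic site, both GCLC sites, the NQO1 site and the NFE2L2 intragenic site. In the other direction 5 of the 9 pooled KQ peaks were overlapped by a pooled wild-type peak, beside 80.4% of all pooled KQ peaks; the 4 that were not lay near MGST3, TXNIP and SOD2 (2). Of the 44 wild-type and 9 KQ peaks, 34.1% and 22.2% were reproducible. At all 5 shared sites the fold was lower in the pooled KQ list, and the expected tags were higher there, by little at one GCLC site (3.6 against 3.56) and most at NQO1. ChIP tags were lower in KQ at all 5, with intervals that overlapped at every site but MGST3. Over all peaks of the pooled lists, the median fold was likewise lower in KQ (4.824 against 6.144) and the median expected tags higher (4.118 against 1.976). The median ChIP tags went the other way, at 25 in KQ and 18 in wild type. These orders were not counted over all sites that both pooled lists share, so nothing particular to the 5 is read from them. The part that the background played in the folds was not tested, and the sources used here give no read depth per library.

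**Figure D4:**
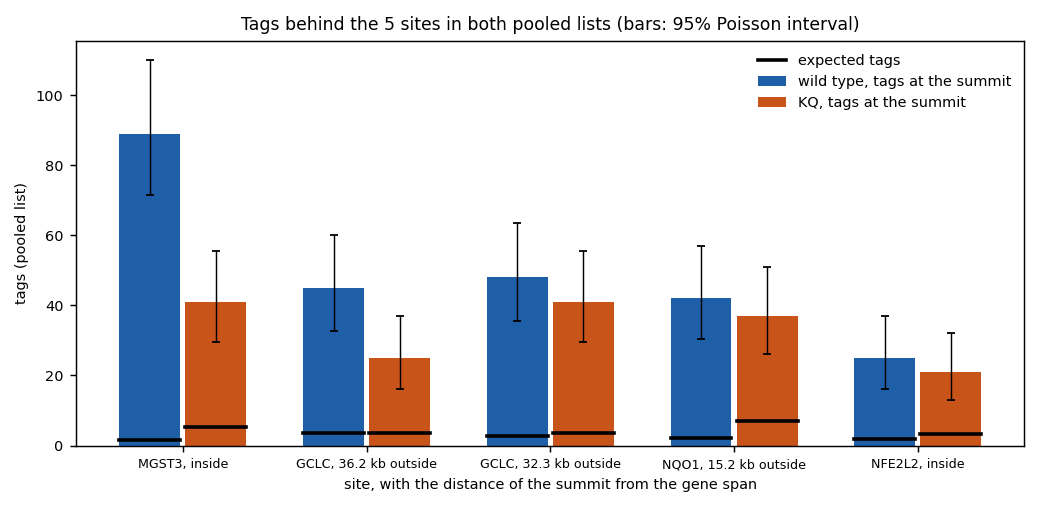
Recovered ChIP tags (bars) with exact Poisson 95% intervals (counting error only) and expected tags (black lines) in the pooled wild-type and KQ lists at the 5 sites near the 9 genes that both lists held. At MGST3 the tags are 89 against 41, and at the reproducible GCLC site 48 against 41.

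The wider redox list held 61 further genes in 10 roles. Of these, 30 (49.2%) had a reproducible wild-type peak within 50 kb, beside 37.7% of all protein-coding genes. A reproducible KQ peak lay near 5 (8.2%), beside 2.68% of all, and nothing is read from these differences. The 5 include LTC4S and SQSTM1, which share 1 site. The median number of reproducible wild-type peaks was 0, as over all genes. Partners and regulators of NRF2 had 7 of 9, namely KEAP1, CUL3, MAFF, MAFK, BACH1, NFE2L3 and SQSTM1, and haem and iron genes had 4 of 6 (BLVRA, FTH1, FTL and FECH), beside 37.7% of all protein-coding genes. With so few genes in a role, these counts single out no role. Glutathione peroxidases had 3 of 6, peroxiredoxins 3 of 6, the thioredoxin system 4 of 8 and glutaredoxins 2 of 4. Glutathione synthesis and reduction had 2 of 8, SLC7A11 among them, and the soluble transferases 2 of 8 (GSTO1 and GSTK1). The remaining MAPEG genes had 2 of 3 (PTGES and LTC4S), and other superoxide dismutases with catalase 1 of 3 (CAT). Some peaks lay far from the gene they count for. Among haem and iron genes, the highest-fold site was inside BLVRA, 0.744 kb from FTH1, 46.8 kb from FECH and 47.5 kb from FTL. With a 5 kb window 20 of the 61 genes kept a reproducible wild-type peak, and 23 with each peak given only to its nearest gene.

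CAT, the gene of catalase, had the highest-fold site of the wider list, inside the gene at chr11:34439205-34439490. In wild-type libraries 1 and 2 the fold was 13.5 and 15.1, against 6.58 and 4.96 in KQ, and the pooled folds were 18.6 and 5.99; the site is named for its wild-type fold, so this order is a description. MAFK, a small Maf partner of NRF2, had a site at 13.6 pooled (10.2 and 13.2), 9.87 kb outside the gene. PTGES, the MAPEG prostaglandin E synthase, had one at 13.4 (10.2 and 7.78) and GPX4, which reduces lipid peroxides in membranes, one at 13.4 (9.45 and 10.8), both inside the gene.

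Reproducible KQ peaks of the wider list lay near CAT, LTC4S, SQSTM1, PRDX6 and CUL3. LTC4S (leukotriene C4 synthase) and SQSTM1 (p62, which sequesters KEAP1) share 1 site, chr5:179818887-179819245, inside SQSTM1, with folds of 7.81 and 20.3 in wild type and 7.49 and 9.58 in KQ. Here KQ library 2 lay above wild-type library 1. The CUL3 site, chr2:224585407-224585606, just outside the gene of this KEAP1 ligase scaffold, had folds of 5.61 and 3.75 in wild type and 6.89 and 6.22 in KQ. Both KQ libraries were above both wild-type libraries there, at a site named for its KQ peak. The KQ peak counted for PRDX6, a peroxiredoxin, lay 38.5 kb away inside SLC9C2, with folds of 7.68 and 5.45 and a pooled fold of 6.84, against 12.3 in the pooled wild-type list.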

How the data were processed

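Peaks of PPARγ ChIP-seq in MCF10A-NeuT cells were used from 4 libraries and 2 pooled lists. The build hg38 and the tools Bowtie2 (version 2), MACS2, bedtools, deepTools and HOMER are named per the submitters' processing notes. The settings of MACS2, and whether input served as its control, were not given in the sources used here. Each deposited list holds the authors' fold enrichment (a ratio), −log10 of the p-value and q-value, a display score made by the authors that was not used, and a summit. Tags and expected tags were recovered from fold and p, a step added after seeing the data. A peak counts for every gene whose RefSeq span lies within 50 kb of its summit. Members and lists were chosen with earlier results of these data known. The text names all 9 genes with each reproducible peak or, failing one, the highest-fold peak, wider-list genes with a reproducible KQ peak and the 5 with the highest-fold wild-type peak, and genes that hold or lie nearer to a peak (1 gene that the rule selects is not reported here); other peaks named, such as those at start sites, were chosen after their values were seen. The planned search for PPAR response elements in peaks was limited to promoter windows. The overlap and tag steps were tested on simulated data. The planned exact permutation test of counts per library is not used, since the choice of genes rests on these lists and 2 libraries against 2 cannot give a p below 0.33. Alternatives changed the window, the overlap, the q threshold, the gene assignment, the list length and the libraries. Python 3.11.15, pandas 2.3.3, numpy 2.4.6, scipy 1.17.1 and matplotlib 3.10.9 were used.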

Additional observations from a re-analysis of the deposited data

How the results depend on the processing

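Of 72 alternative values, 53 stayed within the limits set for a change and 19 did not. The limits were wide for some results. A ratio of peaks per library of 1.25 in place of 7.5 counted as within them. So did shares of pooled wild-type peaks overlapped by KQ of 4.55% and 20.0% in place of 11.4%. The 53 is therefore no measure of how little the values moved, and the values themselves are given below. Reproducible wild-type peaks near the 9 genes numbered 15, and 5 with a 5 kb window, 44 with all pooled peaks, 7 with the nearest gene only, 9 when the longer wild-type list was cut by q to as many peaks as KQ, and 25 to 27 with 1 wild-type library left out (25 without library 1, 27 without library 2), since a peak then needs 1 library only. For counts of reproducible peaks, the shortened setting cut the pooled wild-type list only. The single wild-type lists kept their full length there. So the 9, and the 13 below for the wider list, are not matched in length to the KQ counts. Genes with a reproducible wild-type peak numbered 8, and 3 with the 5 kb window and 4 with the nearest gene only. For KQ, 2 genes and 2 peaks became 1 and 1 with the 5 kb window and 6 and 9 with all pooled peaks. In the wider list, 30 wild-type genes became 54 with all pooled peaks and 13 with the shortened list, and 5 KQ genes became 3 with the 5 kb window, 14 with all pooled peaks, 3 with the nearest gene only, and 7 to 8 with 1 KQ library left out (8 without library 1). The share of pooled wild-type peaks overlapped by KQ was 11.4% and became 44.4% with the shortened list; it ranged from 4.55% (without KQ library 1) to 20.0% (without wild-type library 2) otherwise, so leaving out 1 library moved it by over 1.5 times. The ratio of peaks per library was 7.5, 1.25 with the wild-type lists shortened, and 5.57 to 10.0 otherwise. With the replicate number as a block, an alternative chosen after seeing the data, the ratio was 6 for number 1 and 10 for number 2, with a geometric mean of 7.75; the labels do not say that a number marks a shared culture or day, and no test was made. Only called peaks were used, so a site without a peak may hold tags below the caller's limit.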
